A study of Mus musculus with 4 samples.

Results

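The PGC-1, PPAR and ERR families form the transcriptional circuit best known for setting the mitochondrial content and fuel use of muscle cells. Its accessible chromatin was read here in embryonic hearts with and without SMYD1, a methyltransferase made in cardiac and skeletal muscle. The genes followed were 10 (of the 21938 protein-coding genes of GENCODE M21), chosen by name and function: the coactivators *Ppargc1a* and *Ppargc1b*, the receptors *Ppara*, *Ppard*, *Pparg*, *Esrra* and *Esrrg*, the nuclear factor *Nrf1*, and the mitochondrial DNA factors *Tfam* and *Tfb2m*. Earlier results of these data were known when the 10 genes were chosen. A peak was assigned to a gene when it lay in the gene body or within 10 kb of one of its transcription start sites (TSSs).

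The assay was ATAC-seq, in which the transposase Tn5 cuts DNA that is not covered by nucleosomes. The Smyd1-KO group was 2 libraries from hearts of embryos homozygous for a mutated *Smyd1* allele, bred from *Smyd1*+/- mice, and the WT group was 2 libraries from wild-type hearts. Every library was made from 4 hearts pooled at E9.5 (embryonic day 9.5), from which 40000 viable cells were taken. Such embryos carry the mutation in every tissue and not in cardiomyocytes alone. The peaks, of 149 bp each, came in a pair of lists. One held 25745 peaks whose tags in Smyd1-KO hearts were 2-fold those in WT hearts or more (Smyd1-KO-enriched), and the other 106 peaks with the opposite difference (WT-enriched). The score column has no header. It was read, from the study's peak table, as the tags counted in a peak over the pooled libraries of the genotype its list is named for. Scores run in steps of 0.5 tags in the Smyd1-KO-enriched list and 0.1 in the WT-enriched list, so they are scaled values and not plain counts, and how they were scaled is not given in the sources used here. A score carries no replicate error and no difference between scores could be tested. Peaks open to a like degree in both genotypes are in neither list. In whole hearts, more open chromatin per cell and more cells with open chromatin cannot be told apart, and RNA levels were not analysed here. Of 11 heart marker genes (such as *Tnnt2*, *Myh6* and *Gata4*), 11 had a Smyd1-KO-enriched peak in the gene body or within 10 kb (62.6% of protein-coding genes) and 8 had one at most 3 kb from a TSS (51.2%), but lists of differences do not show how open these genes were in WT hearts, so the tissue label could not be checked further.

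As background, PGC-1α (*Ppargc1a*) and PGC-1β (*Ppargc1b*) do not bind DNA themselves. They are recruited by nuclear receptors, among them the PPARs, which sense fatty acids and pair with RXR, and the oestrogen-related receptors ERRα (*Esrra*) and ERRγ (*Esrrg*), which have no known natural ligand and bind the genes of oxidative metabolism. NRF1 binds nuclear genes that encode mitochondrial proteins, TFAM packages mitochondrial DNA and starts its transcription, and TFB2M opens the mitochondrial promoter for the mitochondrial RNA polymerase. In the heart, the circuit is known for the shift from glucose towards fatty acids as fuel around birth.

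All 10 genes had a Smyd1-KO-enriched peak, against 62.6% of protein-coding genes, and none had a WT-enriched peak, against 0.155%. All 10 also had a Smyd1-KO-enriched peak at most 3 kb from a TSS (51.2% of protein-coding genes). In each gene that peak was 100 bp or less from the TSS. The peak covered a TSS in 6 of 10 genes (27.8% of protein-coding genes). The share of protein-coding genes with a peak within 100 bp was not counted. The genes with a peak over the TSS itself were *Ppargc1a*, *Ppargc1b*, *Ppard*, *Pparg*, *Nrf1* and *Tfb2m*, while in *Ppara*, *Esrra*, *Esrrg* and *Tfam* the peak began 13 to 72 bp away. The nearest WT-enriched peak to any TSS of the 10 genes was 1036 kb away, at *Tfb2m*, and the farthest was 45914 kb away, at *Ppara*.

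The 10 genes held 27 Smyd1-KO-enriched peaks in all. Of these, 10 lay within 100 bp of the gene's own TSS, 1 lay between there and 3 kb, and 16 lay farther away, 12 of those in introns. The peaks within 100 bp had a median score of 539.0 tags, and those beyond 3 kb had a median of 98.25 tags (range 41.0 to 462.5). In the whole Smyd1-KO-enriched list of 25745 peaks, 9222 lay within 100 bp of a TSS, with a median of 445 tags. Its 7850 peaks more than 10 kb from any TSS had a median of 81 tags, a contrast in the same direction. These classes are set by the TSS of any gene, and those of the 27 peaks by the gene's own TSS. The far classes also begin at different distances, so their medians are not like for like. The share of the whole list in introns was not counted. No 32-base word of the 27 peaks recurs elsewhere in the genome.

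**Figure D1:**
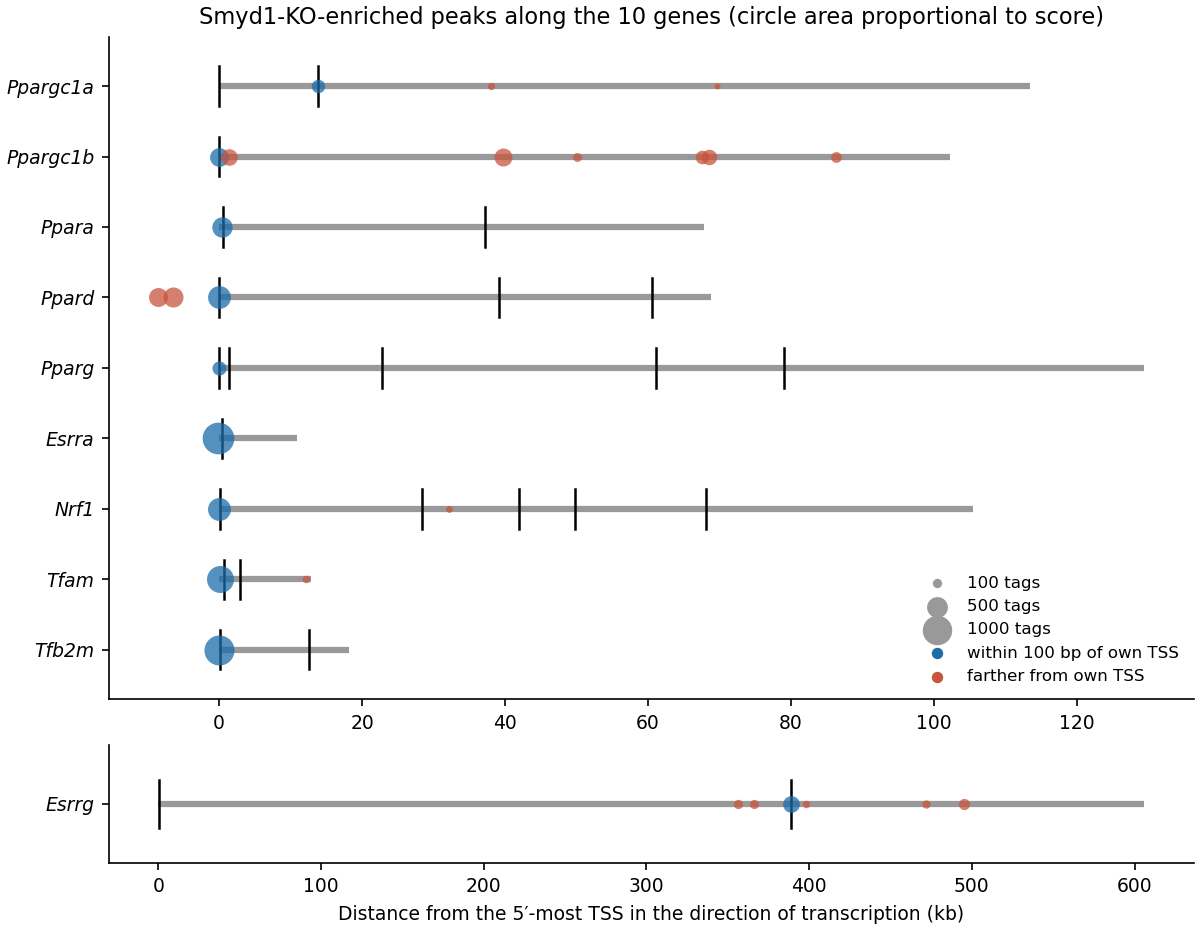
Positions of the 27 Smyd1-KO-enriched peaks along the 10 genes, in kb from the 5′-most TSS in the direction of transcription. Grey bars are gene bodies, black ticks are groups of TSSs less than 1 kb apart, circle area is proportional to the score in pooled tags, blue circles lie within 100 bp of the gene's own TSS and red circles lie farther away. Each gene has 1 blue circle, which in *Ppargc1a* and *Esrrg* is at an internal start and not at the first one.

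*Ppargc1a* is the inducible coactivator of the family. Its strongest Smyd1-KO-enriched peak was the weakest of the 10 TSS peaks, with 208.5 tags (chr5:51553768-51553916, minus-strand gene), and lay over a 5′ UTR and coding exon. Among protein-coding genes with a peak at most 3 kb from a TSS, 14.4% had a strongest peak with a lower score. The peak was not at the first annotated start of the gene (51567704 to 51567726) but at the start 13.9 kb downstream (51553871 to 51553922), which carries both of the gene's protein-coding transcripts of the GENCODE basic set. The first start had no listed peak within 1 kb.

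The DNA upstream of both *Ppargc1a* starts is printed to set the start with a peak beside the one without. The 150 bases upstream of the internal start (chr5:51553923-51554072, minus strand, mm10) contained 1 cyclic AMP response element (CRE, TGACGTCA, which reads the same on both strands), shown in capitals. It lay 76 to 83 bases upstream of the TSS at 51553922 and outside the peak, which ended at 51553916. The CREB family, which binds this element, is known to induce *Ppargc1a* in other tissues. A CRE was present in 1.74% of the 150-base stretches upstream of the first start of 21938 protein-coding genes. No such share was counted for internal starts like this one. The promoter of the first start (chr5:51567727-51567975, minus strand, from the RefSeq promoter table for GRCm38.p6, cut to the bases before the transcript) held none of the strings searched.
Ppargc1a, upstream of the internal start, with a peak at that start: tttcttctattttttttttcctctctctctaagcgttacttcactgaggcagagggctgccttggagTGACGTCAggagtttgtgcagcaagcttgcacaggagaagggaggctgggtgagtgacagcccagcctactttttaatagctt
Ppargc1a, promoter of the first start, no peak: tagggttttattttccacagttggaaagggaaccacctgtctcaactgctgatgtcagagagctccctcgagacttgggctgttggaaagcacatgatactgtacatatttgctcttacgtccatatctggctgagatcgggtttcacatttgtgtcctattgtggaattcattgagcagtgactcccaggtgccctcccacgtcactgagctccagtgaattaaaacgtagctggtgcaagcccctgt

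The *Ppargc1a* TSS peak also stood apart in base composition. It had a GC content of 53% and an observed to expected CpG ratio of 0.226 (2 CpG), where the other 9 TSS peaks had GC contents of 65.8% to 83.9% and ratios of 0.698 to 0.993. The *Ppargc1a* values lie near the medians of Smyd1-KO-enriched peaks more than 10 kb from any TSS (51.7% and 0.2) rather than those within 100 bp of one (67.1% and 0.818). The other peaks of the gene were among the weakest of the 27, an intronic peak of 60.0 tags 24219 bp from the nearest *Ppargc1a* TSS and a peak of 41.0 tags over a coding exon 55727 bp away. The start of a gene model of unverified status was nearer to each of these, *Gm43605* at 15211 bp and *Gm42613* at 1384 bp.

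**Figure D2:**
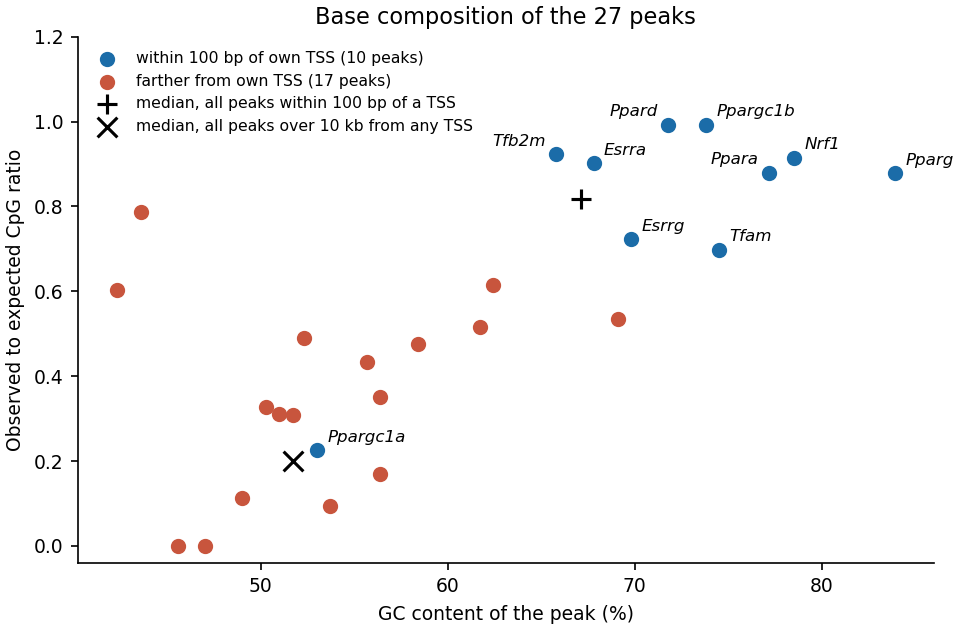
GC content (%) and observed to expected CpG ratio of the 27 Smyd1-KO-enriched peaks, with 1 point per peak. Blue points lie within 100 bp of the gene's own TSS and red points farther away, and the black cross signs are medians over the whole Smyd1-KO-enriched list. The *Ppargc1a* TSS peak (53%, 0.226) lies among the red points and the other 9 TSS peaks lie at 65.8% GC or more.

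*Ppargc1b* encodes PGC-1β, the relative of PGC-1α that is less tied to acute stimuli. It had 7 Smyd1-KO-enriched peaks, the most of the 10 genes, over 102 kb on chromosome 18 (61298136 to 61400431). Only 1.36% of protein-coding genes had 6 or more peaks, a limit set after the counts were seen, and the median gene with any peak had 1. *Ppargc1b* and *Esrrg*, with 6 peaks, passed it, and both are longer than the median protein-coding gene (17.4 kb). The peak over the *Ppargc1b* TSS had 407.0 tags, and a second peak of 315.0 tags lay 1269 bp downstream in an intron, 1083 bp from the start of the microRNA gene *Mir378a*. The remaining 5 were in introns 39625 to 86179 bp from the TSS. Their scores were 373.0, 91.0, 214.0, 277.5 and 135.0 tags in the order of transcription. The intronic peak of 373.0 tags scored higher than 97.4% of Smyd1-KO-enriched peaks more than 10 kb from any TSS, the peak of 277.5 tags higher than 94.5%, and the peak of 214.0 tags higher than 89.6%. All 5 lay nearer to the TSS of another gene, 2 to *Gm25301* and 3 to *Pde6a*, and giving each peak only to the gene with the nearest TSS left *Ppargc1b* with 1 peak, so its rank by number rests on the gene-body rule. No other gene of the 10 had a peak above 145.0 tags more than 10 kb from its own TSS.

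The 3 PPAR genes each had 1 peak at their first start. *Ppara* encodes the receptor that drives fatty acid oxidation in heart and liver, *Ppard* the widely expressed receptor of oxidative muscle, and *Pparg* the receptor of fat cell differentiation. The scores were 600.5 tags at *Ppard*, 477.5 at *Ppara* and 229.5 at *Pparg*. Of protein-coding genes with a peak at most 3 kb from a TSS, 66.6%, 52.4% and 16.8%, in the same order, had a weaker strongest peak. *Pparg* has 5 annotated groups of starts, 3 of which carry a protein-coding transcript of the basic set. Its peak was at the first (TSS at 115360951 on chromosome 6), and no listed peak lay within 1 kb of the start at 115422066, from which a further basic protein-coding transcript begins. The *Pparg* TSS peak was the most GC-rich of the 27 (83.9%, with 23 CpG).

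*Ppard* had 2 further peaks upstream of the gene, of 462.5 tags at 6438 bp and 415.0 tags at 8421 bp from its first TSS. These were the highest scores beyond 3 kb of a gene's own TSS among the 10 genes. The farther one covered the TSS of the antisense RNA gene *AC126937.1*, and the nearer one was 1947 bp from that TSS, so neither has *Ppard* as its nearest gene.

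The *Ppara* and *Ppard* TSS peaks are printed because they hold the densest runs of the GC box GGGCGG, the string recognised by SP1, among the TSS peaks. Capitals mark that string on either strand. The *Ppara* peak (chr15:85735344-85735492, plus strand) lies between annotated starts, in an intron, and holds 3. The bases of the *Ppard* peak that lie before the transcript (chr17:28232587-28232699, plus strand) hold 2, and the whole peak holds 3.
Ppara, TSS peak: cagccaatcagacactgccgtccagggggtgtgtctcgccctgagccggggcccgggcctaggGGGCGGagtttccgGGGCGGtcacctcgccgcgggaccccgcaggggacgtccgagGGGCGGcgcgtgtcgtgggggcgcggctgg
Ppard, TSS peak, bases outside the UTR: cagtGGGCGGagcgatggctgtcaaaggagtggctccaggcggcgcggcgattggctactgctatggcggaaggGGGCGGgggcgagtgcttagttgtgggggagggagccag

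The ERR genes held the highest and one of the lower TSS scores. *Esrra*, a compact gene of 10.8 kb, had a single peak of 1157.5 tags (chr19:6921859-6922007), 46 bp upstream of its outermost start. This score was above those of 97% of the Smyd1-KO-enriched peaks within 100 bp of a TSS and was the highest of the 27. *Esrrg*, the longest gene of the set at 606 kb, had a TSS peak of 322.5 tags, which 29.2% of protein-coding genes with a peak within 3 kb fell below. That peak (chr1:187997666-187997814) was 13 bp from an internal start 389 kb into the gene (187997827 to 187997868), and no listed peak lay within 1 kb of the first start (187608791 to 187609696). The other 5 *Esrrg* peaks were all intronic, with 99.5 and 97.0 tags before the internal start and 64, 80.5 and 145.0 tags after it, at 9345 to 105370 bp from the nearest *Esrrg* TSS. The 3 after the internal start lay nearer to the TSS of another gene, the peaks of 64 and 80.5 tags to *9330162B11Rik* (1629 bp for the former) and that of 145.0 tags to *Gm38315*, which leaves 3 peaks for *Esrrg* by the nearest TSS. The first of the 6 lay 356 kb into the gene.

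Both ERR peaks are printed as the highest TSS peak and the one at an internal start. Each held 1 SP1 string, in capitals, which in *Esrra* is on the opposite strand (CCGCCC). Neither held the ERR element TCAAGGTCA, through which ERRα is known to act on its own promoter in other cells.
Esrra, TSS peak, minus strand: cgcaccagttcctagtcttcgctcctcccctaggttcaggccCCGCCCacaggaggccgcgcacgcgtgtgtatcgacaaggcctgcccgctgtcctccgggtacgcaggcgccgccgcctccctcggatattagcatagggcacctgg
Esrrg, TSS peak at the internal start, plus strand: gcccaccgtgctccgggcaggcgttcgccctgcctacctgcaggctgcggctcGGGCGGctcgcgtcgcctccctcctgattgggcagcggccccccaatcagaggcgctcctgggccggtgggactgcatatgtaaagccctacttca

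*Nrf1* had a TSS peak of 605.5 tags (chr6:30047957-30048105), higher than in 67.1% of protein-coding genes with a peak within 3 kb. The peak was at the first of 5 groups of starts, which carries 7 basic protein-coding transcripts. No listed peak lay within 1 kb of the other 4 groups, and the second peak of the gene, of 52.0 tags, was in an intron 3694 bp from a TSS. The TSS peak had 78.5% GC and 21 CpG but no GGGCGG string.

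The mitochondrial DNA factors ranked next to *Esrra* in TSS score. *Tfb2m* had a single peak of 1040.5 tags (chr1:179546264-179546412), higher than in 93.4% of protein-coding genes with a peak within 3 kb. That peak also covered a TSS of *Cnst*, the neighbouring gene transcribed in the opposite direction, so its tags belong to both promoters. *Tfam* had a peak of 838.5 tags in its 5′ UTR (chr10:71238060-71238208), 72 bp from a TSS (higher than in 85.2% of those genes), and one of 65.0 tags in its 3′ UTR, 9146 bp from a TSS.

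The *Tfb2m* and *Tfam* sequences are printed because they carry the 1 TSS peak that also covers a TSS of another gene and the 1 GABP string among the TSS peaks. GABP (also called NRF-2) is an ETS factor known to bind promoters of mitochondrial genes. Capitals mark GGGCGG in *Tfb2m* (chr1:179546268-179546369, minus strand) and CCGGAAG, the string recognised by GABP, in *Tfam* (chr10:71238073-71238102, minus strand). The GABP string occurred in 11.3% of Smyd1-KO-enriched peaks within 100 bp of a TSS.
Tfb2m, TSS peak, bases outside UTRs: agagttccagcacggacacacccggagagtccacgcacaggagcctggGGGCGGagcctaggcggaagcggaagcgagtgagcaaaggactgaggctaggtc
Tfam, part of the TSS peak: cctgccgcggaCCGGAAGtccgggcttccc

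In the order of their TSS scores the genes were *Esrra* (1157.5 tags), *Tfb2m* (1040.5), *Tfam* (838.5), *Nrf1* (605.5), *Ppard* (600.5), *Ppara* (477.5), *Ppargc1b* (407.0), *Esrrg* (322.5), *Pparg* (229.5) and *Ppargc1a* (208.5). The strongest peak within 3 kb had a median score of 460.5 tags over the 11236 protein-coding genes that had one, and 6 of the 10 genes were above it. With 1 pooled score per peak, no neighbours in this order can be said to differ.

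**Figure D3:**
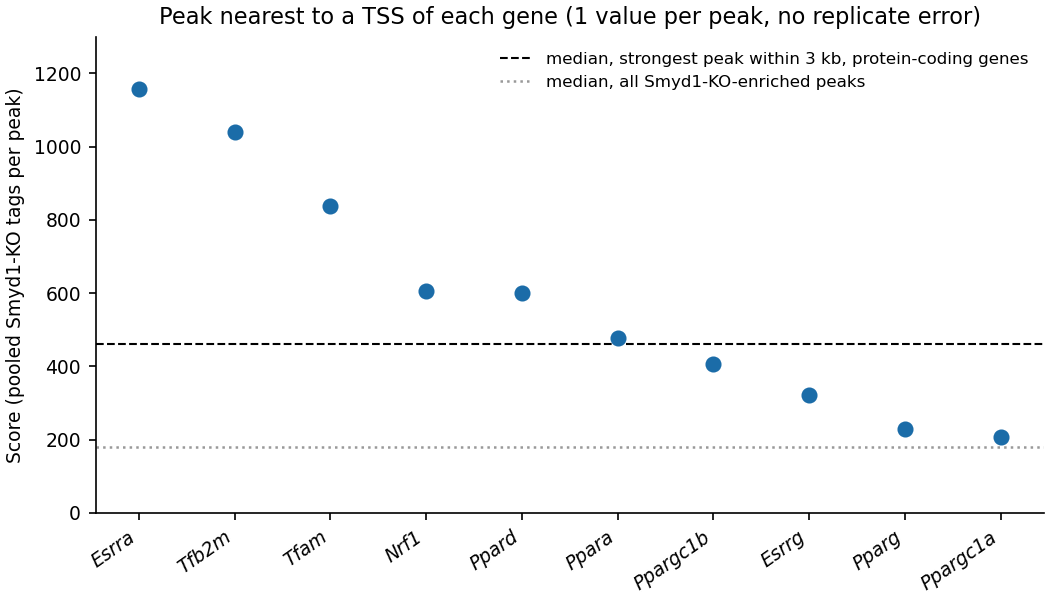
Score, in pooled Smyd1-KO tags, of the peak nearest to a TSS in each of the 10 genes, with 1 point per gene and no replicate error. The dashed line is the median of the strongest peak within 3 kb over protein-coding genes (460.5 tags), and the dotted line the median of all Smyd1-KO-enriched peaks (180.5 tags). All 10 points are above the dotted line and 6 are above the dashed line.

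Counting each group of starts less than 1 kb apart once, a grouping made after the peaks were seen, the 10 genes had 25 start regions. Of these, 10 had a Smyd1-KO-enriched peak closer than 1 kb, exactly 1 in each gene, against 23.7% of the 48607 start regions of protein-coding genes. Of the 15 start regions with a basic protein-coding transcript, 10 had a peak, against 38.4% of such regions over all protein-coding genes. The regions without such a transcript had a peak in 0 of 10 cases, against 4.74%. In the 8 genes with more than 1 start region, the region with a peak was the first in 6 genes and an internal one in *Ppargc1a* and *Esrrg*.

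**Figure D4:**
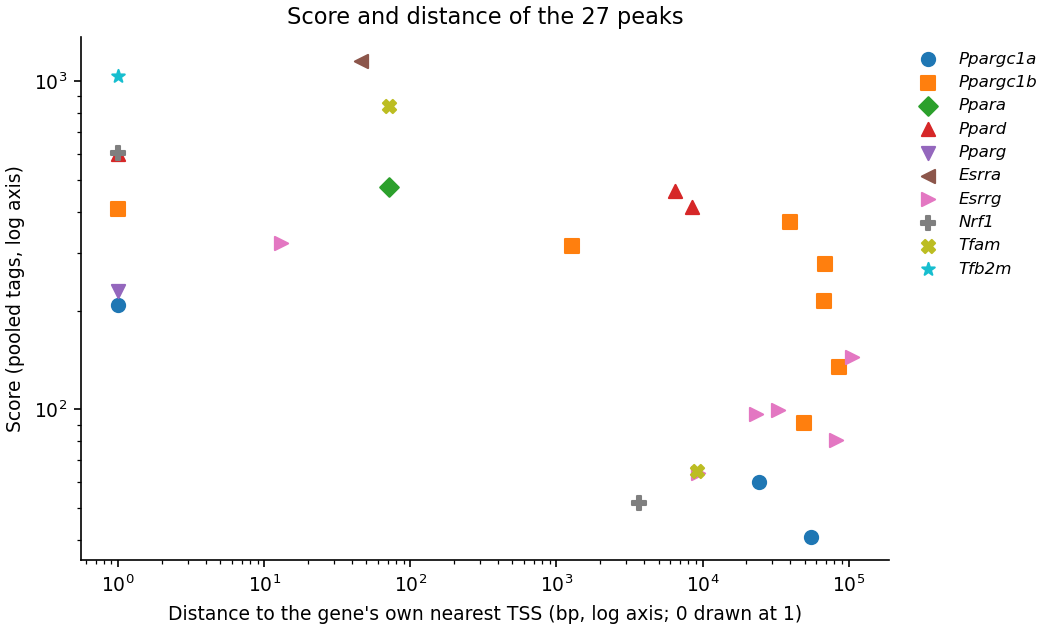
Score in pooled Smyd1-KO tags against distance to the nearest TSS of the gene itself (bp), both on log axes, for the 27 peaks, with 1 symbol per gene and distances of 0 drawn at 1. Peaks beyond 3 kb reach at most 462.5 tags, in *Ppard*, and those of *Ppargc1b* reach 373.0 tags, while 5 of the 10 peaks within 100 bp exceed 600 tags.

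Strings recognised by the members and their partners were searched on both strands of all 27 peaks. The SP1 string GGGCGG was in 8 of the 10 TSS peaks, all but those of *Ppargc1a* and *Nrf1*, and in 56.3% of all Smyd1-KO-enriched peaks within 100 bp of a TSS, 6.74% of those more than 10 kb from any TSS and 29.1% of the whole list. The YY1 string AAGATGGCG was in the *Ppargc1b* TSS peak (1.78% of peaks within 100 bp of a TSS). Full strings bound by the members, matched exactly, were in 0 of 27 peaks. These were the ERR element TCAAGGTCA (0.303% of the list), the PPAR-RXR element AGGTCANAGGTCA (0.0272%) and the NRF1 string GCGCATGCG (0.792%). With shares this low in the list, their absence from 27 peaks says little. The receptor string AGGTCA, which is contained in both of the receptor elements, was in 1 intronic *Ppargc1b* peak (9.74% of the list). The GATA string AGATAA was in 2 intronic *Esrrg* peaks (8.87% of the list). The CRE (0.789%), the E-box CACGTG (3.24%) and the MEF2 consensus (0.94%) were in none of the 27.

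RefSeq promoter windows (250 bases before to 50 after a start, GRCm38.p6) matched 9 of the 10 genes, *Ppargc1b* being the exception, with 15 windows. A Smyd1-KO-enriched peak overlapped 7 of the 15 windows and 35.5% of 21263 windows of protein-coding genes. The NRF1 string was in the windows of *Tfb2m*, overlapped by its peak, and *Ppara*, which its peak did not reach, and in 2.35% of all windows. The receptor string AGGTCA was in 2 windows of *Pparg*, 1 of them overlapped by its peak, and in 14.7% of all windows. The MEF2 consensus was in the window of the first *Esrrg* start, which had no peak, and in 0.489% of all windows.

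Peaks were also counted in 3 lists of genes that work with the 10, which were not tested against each other. No gene of the lists had a WT-enriched peak, which only 0.155% of protein-coding genes had. Among cofactors and partner receptors, 20 of 22 genes (90.9%) had a Smyd1-KO-enriched peak at most 3 kb from a TSS, against 51.2% of protein-coding genes, with a median strongest score of 501.0 tags against 460.5. The highest were *Ncoa2*, a steroid receptor coactivator (949.0 tags), *Creb1*, which binds the CRE (806.5), and *Sirt1*, the deacetylase that acts on PGC-1α (693.0). The PGC-1 relative *Pprc1* had 599.5 tags and the remaining ERR gene, *Esrrb*, had 253.0. *Perm1*, a muscle regulator induced by PGC-1 and ERR, had no peak in its body or within 10 kb, and the PPAR partner *Rxra* had 3 peaks, all more than 3 kb from a TSS.

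Of the fatty acid uptake and oxidation genes, many of them targets of PPAR and ERR, 23 of 32 (71.9%) had a Smyd1-KO-enriched peak at most 3 kb from a TSS, against 51.2% of protein-coding genes, with a median of 430.5 tags against 460.5. The highest were *Etfdh*, which passes electrons from fatty acid oxidation to ubiquinone (1249.5 tags), the medium-chain dehydrogenase *Acadm* (1162.0) and the thiolase *Acaa2* (1013.0). The muscle carnitine palmitoyltransferase *Cpt1b* had 358.5 tags, and the fatty acid transporter *Cd36* had 68.5. Genes with no assigned Smyd1-KO-enriched peak, a state shared by 37.4% of protein-coding genes, included *Cpt1a*, *Mlycd*, *Pdk4*, *Ucp2*, *Ucp3*, *Plin2* and *Plin5*. *Pdk4*, which blocks pyruvate entry into the citric acid cycle, and the lipid droplet gene *Plin2* are known PPAR targets.

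Of the genes of mitochondrial DNA replication and transcription, 12 of 20 (60%) had a Smyd1-KO-enriched peak at most 3 kb from a TSS, a share near the 51.2% of protein-coding genes, with a median of 533.75 tags against 460.5. The highest were *Tfb1m*, the relative of *Tfb2m* that methylates mitochondrial ribosomal RNA (809.5 tags), the mitochondrial DNA polymerase *Polg* (754.0) and the primase *Primpol* (707.0). The mitochondrial RNA polymerase gene *Polrmt*, whose product works with TFAM and TFB2M, had 421.5 tags. No peak was assigned to *Mterf1a*, *Mterf1b*, *Mterf4*, *Twnk*, *Ssbp1*, *Rnaseh1*, *Mtpap* or *Slirp*, a state shared by 37.4% of protein-coding genes. *Twnk* encodes the replicative helicase and *Ssbp1* the single-strand binding protein of mitochondrial DNA. *Mterf1a* and *Mterf1b* are near-identical copies, between which short reads can be hard to place.

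**Figure D5:**
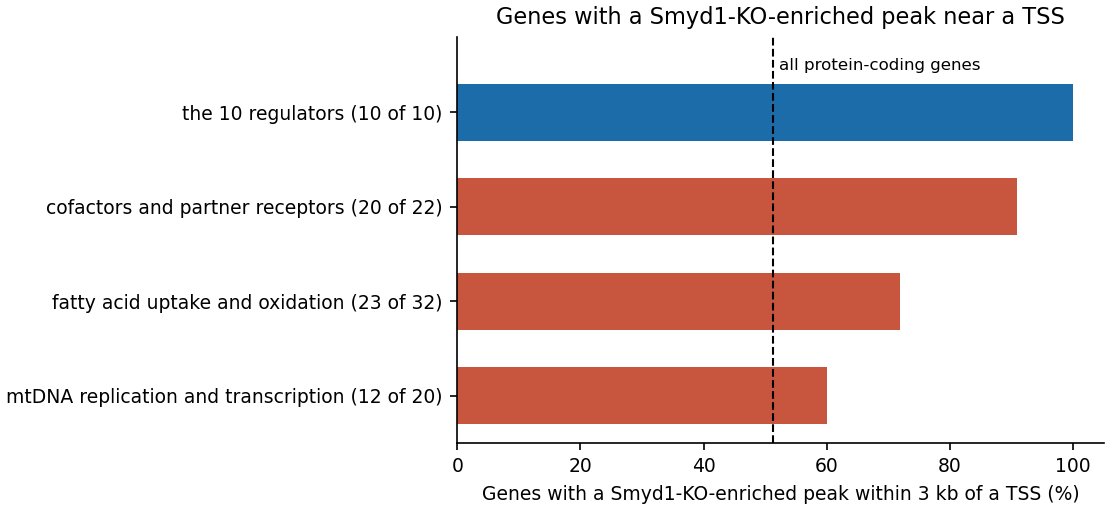
Percent of genes with a Smyd1-KO-enriched peak at most 3 kb from a TSS among the 10 regulators (blue) and 3 lists of related genes (red), with the number of genes in brackets. The dashed line is the share over all protein-coding genes (51.2%). The lists range from 60% for mitochondrial DNA genes to 90.9% for cofactors and partner receptors.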

How the data were processed

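Per the labels and the study's methods, the authors aligned ATAC-seq reads of 4 libraries (2 Smyd1-KO, 2 WT) to mm10 by BWA-MEM, and HOMER 4.10.3 called the peaks, keeping regions with a 2-fold difference between genotypes. Handling of duplicates, multi-mapping reads and the Tn5 offset is not given in the sources used here. The deposited signal is 1 score per peak, read here as the tags of the pooled libraries of a genotype. Its steps differ between the lists and its scaling is not stated, so scores were compared only within the Smyd1-KO-enriched list, and the files do not give the depth each library reached, while the methods state a single round figure for all samples. Starts were read as 0-based BED and are printed 1-based. The source table may already be 1-based, in which case each peak begins 1 bp earlier.

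Distances ran from the peak edge to the nearest TSS of any GENCODE M21 transcript of the gene (Python 3.11.15). Motif strings were matched exactly on both strands of mm10 sequence, and promoters came from RefSeq (GRCm38.p6). Assignment was tested on simulated peaks planted at known distances. No test was run, since the libraries are pooled, and the number of libraries limits what the 2 groups show. The 10 genes, the gene lists and the strings were chosen with earlier results of these data known. The text names every peak of the 10 genes and, for each list, the 3 genes with the highest-scoring peak within 3 kb and the genes with no listed peak, of which 1 is not reported here. *Pprc1*, *Esrrb*, *Cpt1b*, *Cd36*, *Polrmt* and *Rxra* were named after their values were seen.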

Additional observations from a re-analysis of the deposited data

How the results depend on the processing

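For the 10 genes, the numbers with a Smyd1-KO-enriched or WT-enriched peak, the total of peaks and the median score, and for the 3 lists the numbers with a peak near a TSS, were recomputed with other TSS sets (protein-coding or GENCODE basic transcripts), distance from the peak centre, other windows, peaks at or above their list's median score, peaks with at most 10% repeated 32-base words, and peaks given only to the gene with the nearest TSS. Of 67 values, 64 stayed within 1.5 times the value reported, or were equal to it for the median score. The 10 genes kept a Smyd1-KO-enriched peak at most 3 kb from a TSS, and no WT-enriched peak, under every alternative run for those counts. The total of 27 peaks fell to 16 with scores at or above the list median, to 16 in a 10-kb window without the gene body, and to 14 when only the gene with the nearest TSS was given a peak, each of which leaves peaks out by construction. Windows of 5 and 20 kb with the gene body gave 25 and 30 peaks. Peaks covering a TSS could not be counted from the peak centre. Leaving out a library could not be run because the deposited scores are pooled. No paired analysis was possible because the files hold 1 pooled score per peak and no result comes from a test. Base composition, strings, promoter windows, start regions and percentiles were not recomputed. An absent peak shows only that a region did not pass the 2-fold limit, and the depth each library reached is not in the files.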
